A study of Danio rerio with 2 samples.

Results

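The regions described here are the 327 widest of those analysed, from a table of 35854 regions called accessible in 1-somite zebrafish embryos. They are all those 1500 bp or more across, counted from start to stop. All lie on the nuclear chromosomes outside the long arm of chromosome 4 (beyond 27 Mb). They made up 0.924% of the 35388 regions analysed, and the other 35061 are called narrower regions. The mutant library came from a single embryo of genotype npas4lbns297/bns297 and the WT library from a single wild type embryo. For both libraries the labels give AB embryos grown in E3 medium, freed of chorion and yolk before the assay. Npas4l is a bHLH-PAS transcription factor needed for the formation of endothelial and blood cells, the tissues missing in cloche embryos. Each genotype has 1 library from 1 embryo, so the genotypes were compared by description, without tests or p-values. The embryos were taken whole, so a difference in the share of cells in which a region is open and a difference in how open it is per cell cannot be told apart.

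ATAC-seq uses the Tn5 transposase to cut and tag DNA that nucleosomes leave free, so reads pile up over promoters, enhancers and other accessible sites. Most accessible sites are short, the space of a displaced nucleosome or a few. Wide stretches are known at the promoters of strongly transcribed or closely controlled genes, where they often run from the upstream side over the start site into the gene.

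Members were chosen by their width, which the reads of these libraries set, so width, read level and the ratio between the libraries are given as descriptions, and nothing is supported by them. The values are taken to be normalised read counts as the authors scaled them, with a median of 94 per region in the mutant library and 94 in the WT library. Read density is this value per kb of region, and coordinates are those of the GRCz10 build. Each log2 ratio is mutant over WT with a pseudocount of 1, and a range in parentheses after it is a 95% interval. For a single region it is an exact Clopper-Pearson interval, taken on how its reads divide between the libraries, and covers counting error only, and for a median it is the order-statistic interval over regions, which are not replicates. Regions on both sides of the limit of 1500 bp varied widely. The 3 members nearest above it were a snRNA promoter of 1500 bp on chromosome 7, with values of 1327 in the mutant and 754 in WT (log2 ratio 0.81), and unassigned regions of 1505 bp on chromosome 21 (404 and 563, −0.48) and 1512 bp on chromosome 24 (130 and 175, −0.43). Nearest below it were a region of 1499 bp at kansl1b (1691 in the mutant and 1433 in WT, 0.24) and unassigned regions of 1499 bp on chromosome 24 (63 and 33, 0.91) and 1498 bp on chromosome 5 (494 and 269, 0.87).

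The broad regions fell mainly into promoters and regions without an assigned gene. Of the 327, 135 (41.3%, exact 95% interval 35.9 to 46.8) had their centre at most 1 kb from the start site of transcription (TSS) of the gene assigned to them and are called promoters, against 36.3% (35.8 to 36.8) of narrower regions. The order of these shares depended on the definitions. A distance of 500 bp gave 21.7% of broad and 33.2% of narrower regions. Regions with a mean value of at least 100 gave 43.8% and 50.7%, and a width limit of 2000 bp gave 17.6% and 36.4%. Broad regions kept the higher share within 2 kb (44.0% and 40.1%) and for a width limit of 1000 bp (62.3% and 35.1%). They also kept it for regions that contain the TSS (40.1% and 29.9%), an alternative chosen after seeing the data. Of narrower regions with a mean value of at least the lower quartile of the broad ones, 64.3% were promoters. Another 38 (11.6%) had a gene assigned whose TSS was farther than 1 kb, and 154 (47.1%) had no gene assigned, against 51.3% of narrower regions. The broad regions covered 1041 kb and held 6.10% of the mutant and 4.68% of the WT values of all analysed regions. Their median width was 1836 bp, with a maximum of 39743 bp, against 387 bp for the narrower ones.

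The promoter share did not follow width in 1 direction. It was 15.3% in regions under 250 bp, 30.3% at 250 to 500 bp, 52.8% at 500 to 750 bp, 63.8% at 750 to 1000 bp and 67.7% at 1000 to 1500 bp. Within the broad regions it was 57.1% of 196 regions of 1500 to 2000 bp, 33.3% of 66 of 2000 to 3000 bp and 3.85% of 26 of 3000 to 5000 bp, while none of the 39 regions of 5000 bp or more was a promoter. Apart from the region of 3728 bp at a U5 snRNA gene, no broad promoter was wider than 2486 bp. The distance to the TSS is measured from the centre, so a wide region can cover a start site without counting as a promoter, which was so for 3 of the 38 regions assigned beyond 1 kb. Of the 64 regions of 3000 bp or more outside promoters, 8 had an assigned gene, and none of these covered its TSS.

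**Figure D1:**
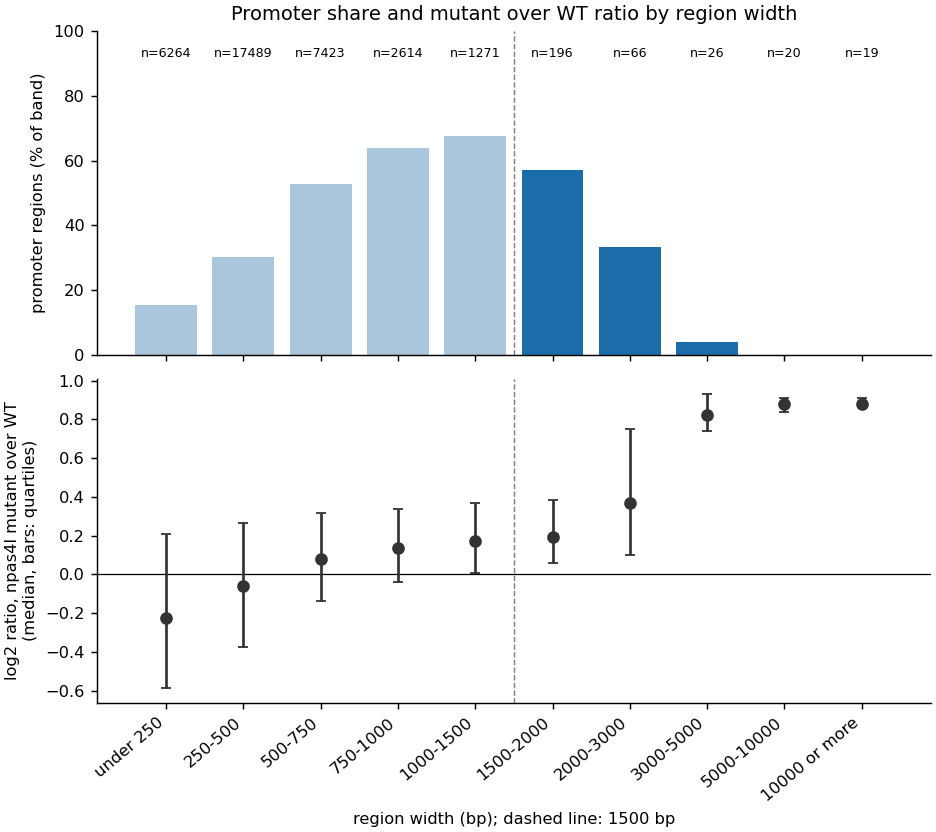
Share of promoter regions (upper plot, % of regions in a width band) and log2 ratio of the npas4l mutant over the WT library (lower plot, median as a point and quartiles as bars) for 10 bands of region width in bp, with the number of regions above each bar and a dashed line at 1500 bp. The promoter share is highest, at 67.7%, just below the line and falls to 0 for the widest bands, where the median ratio is 0.88.

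Read density separated the kinds. Broad regions as a whole had a median of 316 normalised reads per kb in the mutant and 238 (204 to 276) in WT, against 233 in the mutant and 239 in WT for narrower regions. Broad promoters had a median of 532 in the mutant and 486 (405 to 530) in WT, while narrower promoters had 313 and 292. Broad unassigned regions had a median of 183 per kb in the mutant and 117 (96.1 to 141) in WT, against 192 and 209 for narrower unassigned regions. In WT they were less dense than narrower unassigned regions, while in the mutant the interval of their median, 144 to 235, included that of the narrower ones.

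**Figure D2:**
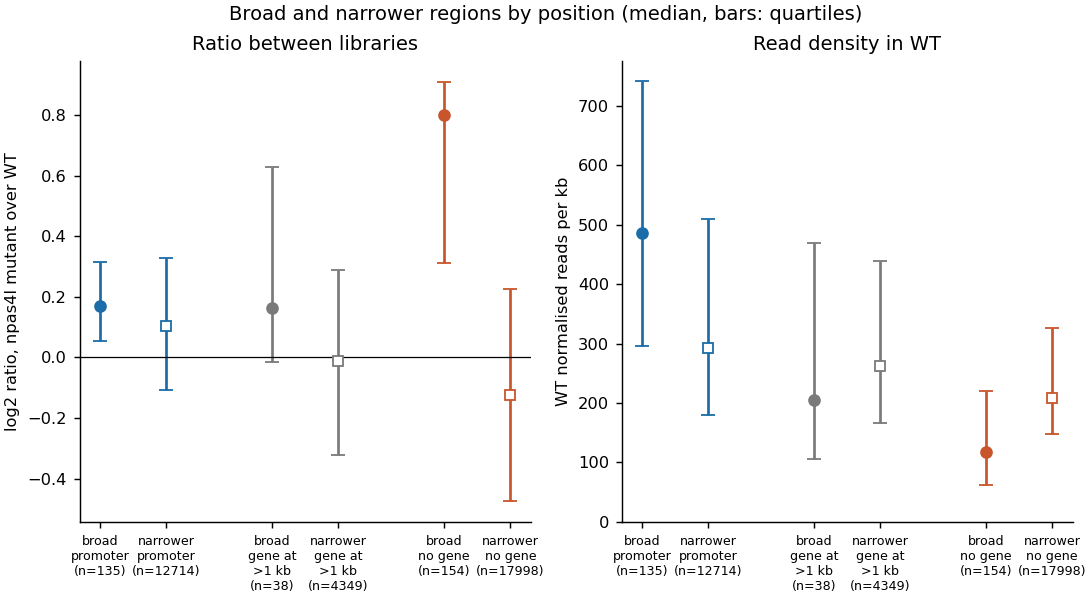
Log2 ratio of the npas4l mutant over the WT library (left) and WT normalised reads per kb (right) for promoters, regions with a gene at more than 1 kb and regions with no gene assigned, with the median as a point and quartiles as bars. Filled circles are broad and open squares narrower regions. Broad unassigned regions have the highest median ratio, 0.80, and the lowest WT density, 117 per kb.

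The ratio between the libraries also differed by kind. Over all broad regions the median log2 ratio was 0.31 (0.25 to 0.37), with 279 above 0 and 47 below, against a median of 0 (−0.01 to 0) for narrower regions. The median also rose with width within the narrower regions, from −0.22 under 250 bp to 0.17 at 1000 to 1500 bp. That last band, with 75.7% of regions above 0, was close to the broad regions of 1500 to 2000 bp. These had a median of 0.19, with 81.6% above 0. At least 2-fold higher in the mutant were 26 broad regions (7.95%), and 1 was at least 2-fold lower, where 3.65% of all analysed regions were that much higher and 4.06% that much lower. Narrower regions with a mean value of at least the lower quartile of the broad ones numbered 5981. Of these, 43 (0.719%) were that much higher and 7 that much lower, so few regions 2-fold lower is not particular to the broad ones. The counting interval lay above 0 in 221 broad regions and below 0 in 17, against 19.7% above and 18.1% below among all analysed regions, most of which hold fewer reads. By kind, 1 of the 135 broad promoters was at least 2-fold higher, against 2.55% of narrower promoters, and so were 24 of the 154 broad unassigned regions, against 4.11% of narrower unassigned ones. Of the 1339 narrower promoters whose mean value reached the lower quartile of the broad promoters, 4 (0.299%) were at least 2-fold higher. Of the 3204 narrower unassigned regions that reached the lower quartile of the broad unassigned ones, 37 (1.15%) were that much higher. Broad promoters had a median of 0.17 (0.14 to 0.20) with quartiles of 0.06 and 0.31, 112 of 135 being above 0, against 0.10 for narrower promoters and 0.08 for the 1339 of these whose mean value reached the lower quartile of the broad promoters. Broad regions with a gene beyond 1 kb had a median of 0.16 (0.01 to 0.33), against −0.01 for narrower ones. Broad unassigned regions had a median of 0.80 (0.65 to 0.83), against −0.13 for narrower unassigned regions and −0.05 for the 3204 of these whose mean value reached the lower quartile of the broad unassigned ones. Over the 173 broad regions with a gene the median was 0.17.

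Broad promoters mostly contained their start sites. A width of 1500 bp or more and a centre at most 1 kb away largely fix this in advance. The longer reach than that of narrower promoters likewise follows from the width limit. Of the 135 broad promoters, 128 contained the TSS, with medians of 1098 bp downstream of it and 585.5 bp upstream. In 84 (65.6%) the downstream part was the longer. The 10479 narrower promoters that contained their TSS reached 314 bp downstream and 161 bp upstream of it, and in 71.7% the downstream part was the longer. The downstream part can run past the end of a short gene, as at the snRNA genes. Protein-coding genes accounted for 129 of the 135 broad promoters, snRNA genes for 4, a microRNA gene for 1 and a pseudogene for 1.

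The 16 broad promoters with at least 1000 WT reads per kb, a set picked on its WT values, had a median log2 ratio of 0.03 (−0.05 to 0.09). Their ratios ran between −0.21 and 0.34, the highest being at ubtf, which encodes a factor of RNA polymerase I transcription. The counting interval lay above 0 in 6 and below 0 in 2, against 19.7% and 18.1% of all analysed regions. The median WT value was 95 for all analysed regions and 2331.5 for these 16, where smaller ratios can clear the interval. The densest of them in WT was si:dkey-23a13.22 (chr7:5854749-5856482), described in the table as histone H2B, one of the core proteins that DNA winds around, with values of 4121 in the mutant and 4180 in WT, or 2378 and 2412 per kb (log2 ratio −0.02). Next to each other on chromosome 7 (chr7:6307847-6331878) lay the broad promoters of 3 protein-coding genes of one clone, si:ch1073-159d7.3, si:ch1073-159d7.6 and si:ch1073-159d7.13. Their densities were 1897, 2310 and 2341 per kb in the mutant and 1823, 2291 and 2365 per kb in WT, and their ratios lay between −0.02 and 0.06. The table gives no description for these 3 genes. A region at chr10:22877410-22879107, assigned to vamp2, which encodes a synaptic vesicle membrane protein, had the highest density of all broad regions, at 2984 per kb in the mutant and 2852 in WT (0.07). Its centre was 2226 bp from the vamp2 start site, so it is not a promoter by the definition used. Where genes have near-identical copies, as histone and small RNA genes do, reads of one copy could have been placed on another, and the sources used here do not say how the authors treated such reads.

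Among the gene lists not grouped afterwards, histone genes had the highest share of broad regions. Of 20 regions at histone genes named by symbol, 3 were broad (15.0%), where 173 of all 17236 regions with an assigned gene were broad (1.00%) and 135 of 12849 promoters (1.05%). All 3 belong to histone variants made outside S phase. The promoter of h3f3a (chr3:47824735-47827109), a gene for histone H3.3, had values of 1810 in the mutant and 1406 in WT (log2 ratio 0.36, 0.26 to 0.47). That of h3f3d, also for H3.3, had 1606 in the mutant and 1428 in WT (0.17, 0.07 to 0.27), and that of h2afy2, for a macroH2A, had 904 and 843 (0.10, −0.04 to 0.24). With genes found by description added, 4 of 39 histone regions were broad (10.3%), a set put together after the values were seen. The high mobility group proteins, which bend DNA or bind nucleosomes, were another such set, with 3 broad promoters among 28 regions. hmgb1a (chr10:36082495-36084034) had values of 3117 in the mutant and 2947 in WT (0.08), hmgb2a had 1627 and 1659 (−0.03) and hmgn6 had 1288 and 1062 (0.28). No ratio among the histone and high mobility group promoters reached 2-fold.

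Genes for chromatin regulators had 5 broad regions among 129 (3.88%), with a median log2 ratio of 0.05. All but the one at arid1b, whose centre was 1231 bp from the TSS, were promoters. arid1b and arid2 encode subunits of SWI/SNF nucleosome remodelling complexes. The arid1b region (chr20:5007544-5009740) had values of 537 in the mutant and 542 in WT (−0.01), and the arid2 promoter (chr4:1833863-1835931) had 1651 and 1636 (0.01). The promoter of chd7, a remodelling helicase gene, had 768 in the mutant and 740 in WT (0.05). kdm6ba and kdm6al encode relatives of the demethylases that act on lysine 27 of histone H3, and their promoters had 572 and 1604 in the mutant against 522 and 1408 in WT (0.13 and 0.19). Of these 5 intervals, only that of kdm6al, 0.08 to 0.29, lay above 0.

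None of 293 regions at homeobox patterning genes was broad, and the widest was 1220 bp, at pbx4. Of 342 regions at other developmental transcription factors 3 were broad (0.877%), close to the 1.00% of all regions with a gene. These were jund with values of 1718 in the mutant and 1281 in WT (log2 ratio 0.42, 0.32 to 0.53), foxd1, a forkhead factor gene, with 451 and 442 (0.03), and junbb with 1243 and 1261 (−0.02). jund and junbb encode AP-1 factors, which bind DNA as Fos and Jun pairs. Grouped after the values were seen, Fos and Jun genes had 4 broad regions among 12, the others being fosab with 1121 in the mutant and 997 in WT (0.17) and fosaa with 807 and 585 (0.46). Myc genes, which encode growth-promoting bHLH factors, had 2 among 8, likewise grouped afterwards. The mycb promoter (chr2:32032347-32034720) had 1103 in the mutant and 1317 in WT (−0.26, −0.37 to −0.14) and the mycla promoter had 1142 and 975 (0.23, 0.10 to 0.35). The pair lay on opposite sides of equal values.

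Lists of signalling, cell cycle, RNA processing, translation and ribosomal protein genes had at most 2 broad regions each. Among 250 regions of signalling genes 1 was broad (0.400%), the promoter of the Wnt receptor gene fzd8b, with 1109 in the mutant and 912 in WT (0.28, 0.15 to 0.41). Cell cycle genes had 2 among 122 (1.64%), both at genes for kinases of the RNA polymerase II tail. cdk12 had 1481 in the mutant and 1349 in WT (0.13) and cdk13 had 947 and 812 (0.22). RNA processing genes had 2 among 123 (1.63%), hnrnpr with 1603 in the mutant and 1444 in WT (0.15) and ddx26b with 1990 and 2059 (−0.05). Translation factors had 1 among 82 (1.22%), eif2b2, which encodes a subunit of the exchange factor for eIF2. None of 93 regions of ribosomal protein genes was broad, the widest being 1114 bp at rpl9.

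Blood and vascular genes, the lineage that Npas4l directs, had no broad region among 41 regions at 23 genes, where 1.00% of all regions with a gene were broad, so a list of this size need not hold any. The widest was the promoter of the apelin receptor gene aplnra (chr8:40286674-40288035), 1361 bp across, with 526 in the mutant and 469 in WT (log2 ratio 0.17, −0.02 to 0.35). Next came a region of 1008 bp at fli1a, an ETS factor gene of endothelial cells, with 455 in the mutant and 390 in WT (0.22, 0.02 to 0.42). The median ratio of all 41 regions was −0.29, against 0.08 for all narrower regions with a gene. The regions at aplnra and fli1a, named for their width, thus lay above the median of their list. Every one of these regions was thus narrower than 1500 bp.

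MicroRNA and other small noncoding genes had 6 broad regions among 276 (2.17%), and these spread more widely in ratio than the other lists. The U5 snRNA gene (chr20:48778655-48782383), part of the spliceosome, had 3839 in the mutant and 4235 in WT (−0.14, −0.20 to −0.08). The let-7 gene mirlet7a-1 had 1697 in the mutant and 1476 in WT (0.20, 0.10 to 0.30), and the region at SNORA63, a small nucleolar RNA gene, had 894 and 826 (0.11). Of 3 snRNA genes known only by identifier, a pair on chromosome 7 had 1327 and 355 in the mutant against 754 and 256 in WT (0.81 and 0.47). The one on chromosome 9 had 1055 in the mutant and 1459 in WT (−0.47, −0.58 to −0.35). These genes occur in many copies, with the limit on read placement given above.

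**Figure D3:**
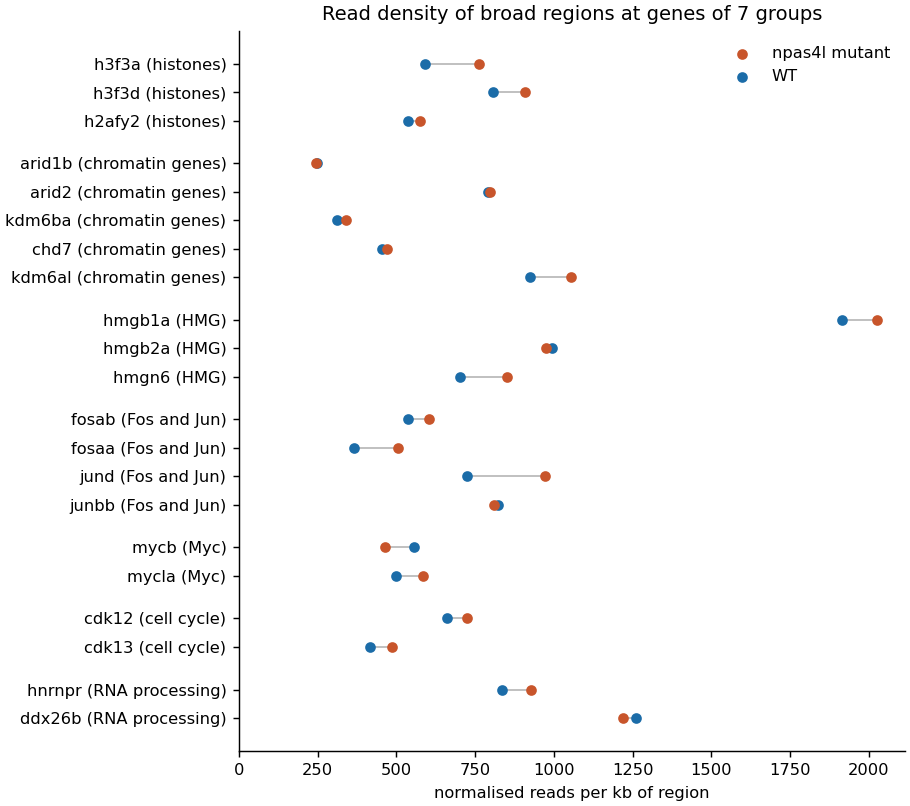
Normalised reads per kb in the npas4l mutant library (orange) and the WT library (blue) for the broad regions of 7 gene groups, with a grey line joining both values of a region. Among the genes drawn, the log2 ratios run between −0.26 at mycb, lower in the mutant, and 0.46 at fosaa, higher in the mutant. The densest drawn is hmgb1a, with 2025 per kb in the mutant and 1915 in WT. The high mobility group, Fos and Jun, and Myc groups were put together after the values were seen. The histone H2B gene, denser than hmgb1a, and the signalling, translation and small noncoding genes are not drawn.

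The extremes of the ratio among broad regions with a gene symbol that is not a clone name were modest. The 6 lowest were eif2b2 with 124 in the mutant and 162 in WT (log2 ratio −0.38, −0.75 to −0.05), mafb with 282 and 342 (−0.28), mycb, gpc2 with 779 and 928 (−0.25), zmym2 with 1427 and 1604 (−0.17) and lasp1 with 618 and 683 (−0.14, −0.30 to 0.02). mafb encodes a bZIP factor of the large Maf kind, gpc2 a glypican of the cell surface and lasp1 an actin-binding protein. The lasp1 interval included 0. The 6 highest were capn3a with 814 in the mutant and 467 in WT (0.80, 0.64 to 0.97), abcc10 with 69 and 41 (0.74, 0.17 to 1.33), csnk2a4 with 350 and 217 (0.69), wdr20b with 196 and 128 (0.61), zfand3 with 2072 and 1396 (0.57, 0.47 to 0.67) and kat7a with 104 and 70 (0.56, 0.12 to 1.02). capn3a encodes a calpain protease and csnk2a4 a catalytic subunit of casein kinase 2, and neither region was a promoter. The capn3a region, 4247 bp wide, lay 1633 bp from an unassigned region of 16896 bp on chromosome 17 with a similar ratio, 0.88. The ratio at the zfand3 promoter was above the upper quartile of broad promoters, 0.31.

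The widest regions lay away from promoters, and most of their ratios lay in a narrow range. The 64 regions of 3000 bp or more outside promoters were on 18 of 25 chromosomes, and 56 of them had no gene assigned. No region sequence or repeat annotation was used here, so how reads were placed in them was not examined. Whether each is open along its whole length was not tested. All 64 were above 0, with a median log2 ratio of 0.87 (0.84 to 0.89) and quartiles of 0.82 and 0.91. In 62 the counting interval lay above 0, as it did in 19.7% of all analysed regions, most of which hold fewer reads. The median WT value was 1345.5 for the 64 and 95 for all analysed regions. A log2 ratio of 0.7 to 1.1, a range chosen after the values were seen, held 55 of the 64 (85.9%) and 5.19% of all analysed regions. It held 69 of 154 broad unassigned regions (44.8%), against 4.97% of narrower unassigned ones, and 2 of the 135 broad promoters, against 4.82% of narrower promoters. Narrower regions whose mean value reached the lower quartile of the broad ones of their kind had lower shares. The range held 1.84% of such unassigned regions and 0.597% of such promoters. Among the 39 regions of 5000 bp or more the quartiles of the ratio were 0.85 and 0.91, and 36 lay within the range. For regions outside promoters the median went up with width, being 0.28 for 84 regions of 1500 to 2000 bp, 0.61 for 44 of 2000 to 3000 bp, 0.83 for 25 of 3000 to 5000 bp and 0.88 for the 39 of 5000 bp or more. Without the 65 regions of 3000 bp or more, the median of the other 262 broad regions was 0.22.

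**Figure D4:**
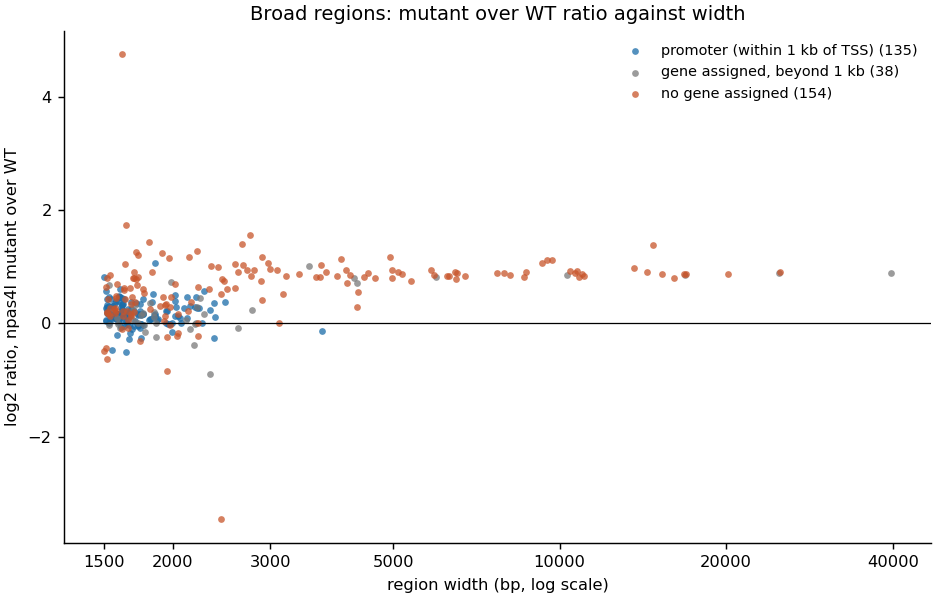
Log2 ratio of the npas4l mutant over the WT library against region width in bp (log scale) for the 327 broad regions, coloured by position. Below about 3000 bp the points scatter, with promoters near 0.17. From 5000 bp upward most lie close to 0.88, with quartiles of 0.85 and 0.91 and a full range of 0.75 to 1.39.

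The widest of all, at chr2:19798021-19837764, spanned 39743 bp and had values of 9400 in the mutant and 5048 in WT (log2 ratio 0.90, 0.85 to 0.95). Its centre lay 22971 bp from the TSS of a gene described as encoding an uncharacterised protein. The next were at chr17:45217647-45242646 with 5712 in the mutant and 3027 in WT (0.92), chr8:34836408-34861344 with 5993 and 3218 (0.90) and chr24:16117170-16137335 with 5207 and 2827 (0.88). These 4 regions, on 4 chromosomes, had ratios between 0.88 and 0.92. Of the other 6 of the 10 widest, 5 had ratios between 0.80 and 0.88: chr17:45199129-45216025 (3369 in the mutant and 1834 in WT), chr17:46968307-46985169 (7209 and 4008), chr8:34862554-34879321 (4299 and 2344), chr21:25815001-25831076 (5602 and 3221) and chr8:34233784-34249119 (4990 and 2729). The exception was chr14:19792688-19807448, with 5699 in the mutant and 2177 in WT (1.39, 1.32 to 1.46), the highest ratio of any region of 3000 bp or more.

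The other 9 of the 64 lay outside the range of 0.7 to 1.1, 4 below and 5 above. The lowest was chr13:17248-20364, near the start of chromosome 13, with 1935 in the mutant and 1919 in WT (0.01, −0.08 to 0.10). The next were chr18:31593067-31597363 with 125 and 102 (0.29, −0.10 to 0.67), chr3:62045482-62048641 with 2117 and 1483 (0.51, 0.42 to 0.61) and chr22:28154762-28159081 with 225 and 152 (0.56, 0.26 to 0.87). Read density of the 64 varied far more than their ratio. The median was 271 per kb in the mutant and 143 in WT, and the WT values ran between 21.3 and 730 per kb. The 64 held 2.74% of the mutant and 1.56% of the WT values. The 6 mitochondrial regions of the table, which are not among the broad regions, had ratios between −0.19 and −0.15. Their part in the ratios of the widest regions was not tested.

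**Figure D5:**
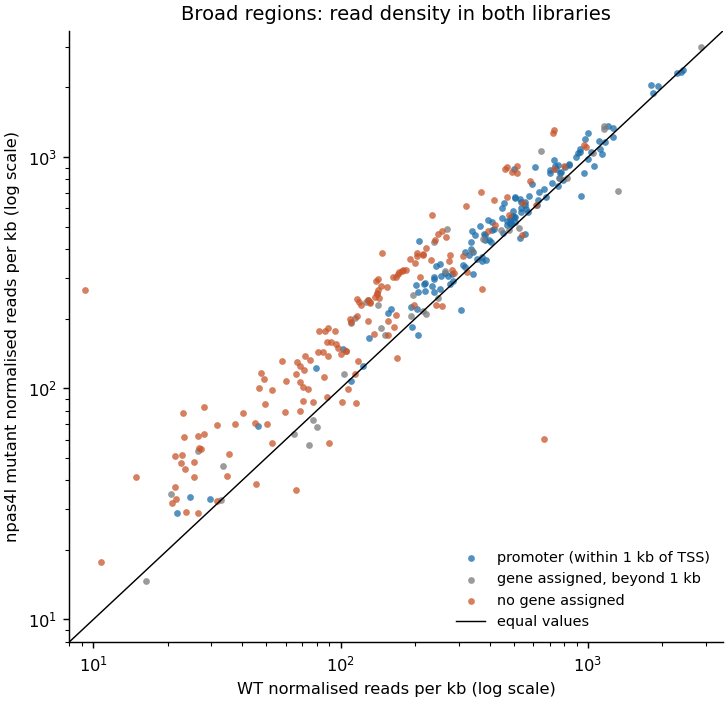
Normalised reads per kb in the npas4l mutant library (vertical) against the WT library (horizontal) for the 327 broad regions, both on log scales, with a line of equal values. Promoters (blue) lie close to the line, with 112 of the 135 above it and log2 ratio quartiles of 0.06 and 0.31. Of the 154 unassigned regions (orange) 141 lie above the line, at varied distances, with log2 ratio quartiles of 0.31 and 0.91.

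Some broad regions lay in groups. Joined where they were at most 20 kb apart, 86 of the 327 formed 33 runs, 23 of them pairs, and 28 runs with 75 regions held no promoter. Of the 154 broad unassigned regions 67 were in runs, against 9 of the 135 broad promoters. The run with most regions, chr17:39954595-40016398, had 8 over 61.8 kb, with summed values of 8919 in the mutant and 4840 in WT and log2 ratios of 0.75 to 1.55. Another on chromosome 10 (chr10:16826056-16885350) had 6 regions over 59.3 kb, with 22079 in the mutant and 12223 in WT and ratios of 0.79 to 0.98. At chr7:52729534-52765939 there were 5 regions with ratios of 0.72 to 1.06. The only runs made up of promoters were the clone genes on chromosome 7 described above, the pair of chromosome 7 snRNA genes and a pair at chr19:48357427-48379432, with ratios of −0.10 and 0.04.

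Narrower regions beside the widest ones had higher ratios than those beside broad promoters. The 16 narrower regions within 5 kb of an off-promoter region of 3000 bp or more had a median log2 ratio of 0.79 (0.13 to 0.92), and 7 of them were in the range of 0.7 to 1.1. Within 50 kb the median of 74 such regions was 0.29. The 52 narrower regions within 5 kb of a broad promoter had a median of 0.01 (−0.05 to 0.06), with 1 in the range. Broad unassigned regions also lay closer to other regions, 16.2% having one within 1 kb, against 5.15% of narrower unassigned regions. Such a neighbour could itself be a broad region. Promoters went the other way, with 8.15% of broad and 12.6% of narrower ones having a region within 1 kb.

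A few broad regions under 3000 bp stood far from the rest, and several of these were chosen after their values were seen. The region with the lowest WT density, chr24:36631114-36632730, had 428 in the mutant and 15 in WT (log2 ratio 4.74, 4.12 to 5.65), a 26.8-fold difference. The next lowest in WT density were an unassigned region on chromosome 13 with 28 in the mutant and 17 in WT (0.69, −0.21 to 1.67) and one on chromosome 25 (chr25:25983332-25985140) with 75 and 27 (1.44, 0.81 to 2.13). The only broad region at least 2-fold lower in the mutant was chr19:864672-867120, also without a gene, with 147 in the mutant and 1625 in WT (−3.46, −3.73 to −3.22). The lowest ratio of a broad region with an assigned gene was that of a region near the lincRNA gene si:dkey-153m14.1 (chr20:55336126-55338459), with 1668 in the mutant and 3097 in WT (−0.89, −0.98 to −0.81). Only for the chromosome 13 region did the counting interval include 0, and each difference rests on 1 embryo per genotype.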

How the data were processed

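ATAC-seq libraries were made from 1 mutant and 1 WT embryo at the 1-somite stage. The submitters' processing notes name, without roles, the build GRCz10 (danRer10) and the tools DESeq2 1.14.1, DESeq, MACS2, STAR 2.5.3a, Trimmomatic 0.36, deepTools 2.5.4 and Picard 2.9.0. Not given in the sources used here are the merging of regions, the handling of duplicates, any shift of read ends for Tn5 and whether starts count from 0 or 1.

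The deposited library columns hold whole-number scores. The mutant values have the form of read counts that were scaled and rounded. A whole read times 1.06505 matched 99.96% of mutant values up to 4000, where a share of 0.939 would match by chance. The WT values were not checked for such a factor, and theirs was taken as the reciprocal, also 0.939. Reads recovered this way, 7066666 in the mutant and 7853828 in WT, served only for counting intervals. Reads from PCR carry no molecular identifiers here and are not independent molecules, so these intervals cover counting error only. The deposited log2 ratio is mutant over WT per the file headers. Per the file headers, the authors also give the fraction of each region that overlaps its gene, and no result rests on it. No filter on low values was used, the lowest mean being 20.5.

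Left out were 6 mitochondrial regions and 460 on chromosome 4 beyond 27 Mb, 19 of them 1500 bp or more. Of the 327 members 173 had a gene identifier (172 genes) and 163 a symbol, 25 of these from a gene name table. Gene lists were matched by symbol. Named regions were the 10 widest, the 6 lowest and 6 highest ratios with a symbol and the 6 highest and 3 lowest WT densities. The 3 nearest the width limit on each side and the 4 widest per list were also named. Some regions were named outside this rule, among them kdm6al, ubtf, the snRNA gene on chromosome 9 and extremes picked on their values. The members, lists and rules were chosen with earlier results of these data known, and some gene groups, marked as such, after the values were seen. Alternatives varied the pseudocount, scaling, centring, width limit, level minimum, promoter distance and region classes. Shares have exact Clopper-Pearson 95% intervals. The calculation was tested on simulated data. The software was scipy 1.17.1, pandas 2.3.3, numpy 2.4.6 and matplotlib 3.10.9 under Python 3.11.15.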

Additional observations from a re-analysis of the deposited data

Results flagged for a closer look

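The long arm of chromosome 4 beyond 27 Mb was left out of the comparisons, and most of its regions of 1500 bp or more had a mutant signal above the WT level as well. The 16 regions of this width had a median log2 ratio of 0.78 (0.04 to 1.06), with 13 above 0 and 3 below. In 11 of the 16 the counting interval lay above 0 and in 2 below, against 19.7% above and 18.1% below among all analysed regions. The median WT value was 186 for the 16 and 95 for all analysed regions, which leave this arm out. The 4 of the 16 regions that were 3000 bp or more had ratios of 0.78 to 1.05 with a median of 0.87. The widest, 20284 bp across, had values of 6801 in the mutant and 3696 in WT. The 444 narrower regions of the same arm, with a median WT value of 61, had a median ratio of 0.33. Their counting interval lay above 0 in 188 and below 0 in 40, so ratios above 0 were not particular to the wide regions of the arm. The difference between the libraries on this arm was not tested, with 1 library per genotype.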

How the results depend on the processing

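With 1 library per genotype there was no replicate to leave out. No paired analysis was possible because each genotype has 1 library. A width limit of 1000 bp gave a median log2 ratio of 0.19 for broad and −0.017 for narrower regions (difference 0.21), promoter shares of 62.3% and 35.1%, WT densities of 352 and 235 per kb, 57 broad regions that were at least 2-fold higher and 5 that were 2-fold lower or more. A limit of 2000 bp gave a broad median and a difference of 0.81, promoter shares of 17.6% and 36.4%, 141 per kb and 17 regions at least 2-fold higher. Leaving out regions of 3000 bp or more, chosen after seeing the data, gave a broad median and a difference of 0.22, 51.1% promoters and 283 per kb. Promoters alone gave 0.17 for broad and 0.10 for narrower regions (difference 0.064), with 486 and 292 per kb. Regions with a gene gave 0.17 and 0.080 (difference 0.089), with 446 and 283 per kb, and unassigned regions alone, also chosen after seeing the data, gave 0.80 for broad regions and a difference of 0.93. A mean of at least 100 gave a narrower median of 0.038, a difference of 0.25, promoter shares of 43.8% and 50.7%, and 406 per kb for narrower regions. Equal totals gave a narrower median of −0.029. Counting promoters within 500 bp gave 21.7% of broad and 33.2% of narrower regions. The order of the shares thus turned round under the 500 bp distance, the mean of at least 100 and the 2000 bp limit. Within 2 kb the shares were 44.0% of broad and 40.1% of narrower regions. Regions that span the TSS, an alternative chosen after seeing the data, made up 40.1% of broad and 29.9% of narrower ones. Taking 1 region per gene gave 234 per kb for narrower regions. The cause was not tested for any of these. The broad median ratio was above the narrower one under each alternative for which both were computed, and was 0.30 with a pseudocount of 10. Centring on the median of all regions, which is 0, could not move it. Depth limits single regions with low values, such as abcc10, more than the widest regions.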
